A study of Mus musculus with 21 samples.

Results

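The genes described here encode the proteins of the cytosolic ribosome. They were taken by symbol: an Rpl or Rps number with at most a short suffix, Rplp0, Rplp1, Rplp2 and Rpsa, leaving out S6 kinases and pseudogenes marked -ps. This gave 84 of the 24411 genes in the tables, 51 of the large and 33 of the small subunit, and 7 of them are paralogs with an l in the symbol (Rpl3l, Rpl7l1, Rpl10l, Rpl22l1, Rpl39l, Rps4l and Rps27l). A few genes of ribosomal proteins, such as Fau and Rack1, fall outside the name rule and are given separately.

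RNA came from the hippocampus of 1 hemisphere of perfused male wild-type mice. In the transfer experiment, B6.SJL-Ptprca Pepcb/BoyJ hosts aged 4 months all received a CD8a antibody on days -11 and -7, and then CD8+ T cells of C57BL/6J donors by tail vein. Donors were 22 to 28 months old for the aged T group (n = 5) and 3 to 4 months old for the young T group (n = 6). The depletion experiment used mice of 22 to 24 months, injected every 4 days with either a CD8a antibody (n = 5) or rat IgG2b as its isotype control (n = 5). The controls of the transfer experiment thus had the antibody too. The purpose was to ask what aged CD8+ T cells do to a young hippocampus and what their depletion does to an aged one. The labels name separate samples and say no more on how replicates were made, so p-values measure the spread between these samples.

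A ribosome joins a small subunit, which reads the messenger RNA, to a large subunit, which links the amino acids. Cells need nearly all of these proteins in equal numbers, and their messages are among the most abundant short transcripts of any tissue, neurons included. Many begin with a cytosine followed by an unbroken run of pyrimidines, the terminal oligopyrimidine tract. Through it the mTOR pathway and the RNA-binding protein Larp1 control how much of the message is translated.

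Libraries held 9957822 to 15055422 reads. All 10 hippocampal neuron markers had a mean of at least 10 in every group, and the 6 CD8 T cell markers together had 4 to 28 reads in a whole group, with Cd8a, Cd8b1, Cd3e, Cd3d and Gzmk at 0 in the aged T group. Values are normalized counts, reads divided by 1 size factor per library, and each experiment was scaled on its own. A mean normalized count of at least 10 was needed for testing, which 81 members passed (48 large, 33 small); Rpl3l, Rpl10l and Rpl39l did not. Differences are in log2(normalized count + 1), with young T subtracted from aged T and IgG2b from CD8a antibody, and a value after ± is their standard error (SE) unless marked SD. The scale understates the difference of low genes. In tissue RNA, fewer cells of a type and less RNA per cell cannot be told apart.

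The starts of the messages are shown because these messages are known for the tract found there. RefSeq promoter windows (GRCm38.p6) were matched for 63 of the 84 members. Each line below gives 15 bases before and 15 from the annotated start, 5′ to 3′ on the gene's strand. Capitals mark the longest run of C and T that touches the first 12 transcribed bases.
Rps6, chr4:86857353-86857382, minus strand: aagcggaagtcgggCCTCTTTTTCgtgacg
Rpl28, chr7:4792950-4792979, plus strand: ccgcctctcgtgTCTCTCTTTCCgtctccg
Rpl35, chr2:39005117-39005146, minus strand: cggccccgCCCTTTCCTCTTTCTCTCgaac
Rpl38, chr11:114668565-114668594, plus strand: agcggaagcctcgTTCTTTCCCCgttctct
Rps27, chr3:90213634-90213663, minus strand: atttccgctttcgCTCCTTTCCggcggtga
Rpl22l1, chr3:28805493-28805522, plus strand: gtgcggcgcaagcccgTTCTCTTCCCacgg
Rps27l, chr9:66946071-66946100, plus strand: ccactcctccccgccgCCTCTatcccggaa
Rpl7l1, chr17:46782642-46782671, minus strand: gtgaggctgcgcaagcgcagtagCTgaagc
The runs are 10 bases long in Rps6, 11 in Rpl28, 18 in Rpl35, 10 in Rpl38, 9 in Rps27 and 10 in the paralog Rpl22l1. They are 5 bases long in the paralog Rps27l, which has a second RefSeq start with a run of 2, and 2 in Rpl7l1. A run of at least 8 was present in 22 of the 63 members (34.9%) and in 8.40% of the 26962 other genes. Such a run need not begin at the annotated start or with a cytosine, so this does not count terminal oligopyrimidine tracts. In the printed lines of Rpl22l1 and Rps27l, the annotated start base is a g outside the run. A pyrimidine motif was also searched, in the form CTTTC and in the related forms written CTTTT and, as the last of them, CTTCC; these can overlap. At least 1 form lay on the coding strand within 25 bases either side of the start in 33 of 63 members (52.4%) and in 23.4% of 26962 other genes. On the other strand the shares were 36.5% and 24.0%. The motifs, the run length and the genes printed were picked after the members' starts had been viewed, so these shares are descriptions.

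The coding sequences of Rps27 and its relatives are shown because they show which genes a read of Rps27 could also match. The first 90 of 252 coding bases are given 5′ to 3′, and capitals mark bases that differ from Rps27.
Rps27: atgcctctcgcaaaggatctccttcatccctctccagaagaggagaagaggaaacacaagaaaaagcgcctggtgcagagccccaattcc
Rps27rt: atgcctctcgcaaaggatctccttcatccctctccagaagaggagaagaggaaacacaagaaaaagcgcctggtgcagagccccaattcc
Rps27l: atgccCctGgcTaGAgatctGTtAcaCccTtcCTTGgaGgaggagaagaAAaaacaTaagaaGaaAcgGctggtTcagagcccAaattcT
Rps27 lies at chr3:90212522-90213651 with 4 exons, and Rps27rt is a single-exon gene at chr9:114982366-114982739 (mm10, GENCODE vM21). Over all 252 coding bases they do not differ, while Rps27l differs from Rps27 at 60 bases (76.2% identity). Of the 50-base windows of the Rps27 transcript, 98.65% occur in Rps27rt. Many members share sequence in this way: 38 of 81 tested members have over 50% of their windows in another annotated transcript. Read assignment is therefore uncertain for much of the family. The median log2 difference was 0.28 in the 38 and 0.30 in the other 43 in the transfer experiment. In the depletion experiment it was 0.28 and 0.26. Only 1 of the 81 had no window in another gene, so this split does not separate affected from unaffected members. The part of read assignment was not tested.

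Levels of the members were compared per kilobase of transcript, as the mean over all libraries of an experiment. The highest were Rpl13a (12750.0 normalized counts per kilobase in the transfer and 14399 in the depletion experiment), Rps14 of the small-subunit platform (10484 and 12169) and Rpl3, which lies close to the peptide-bond-forming centre (7509.7 and 7449). The middle of the family was narrow: the upper quartile was 2.01 times the lower in the transfer and 2.0 times in the depletion experiment. Medians were 2779 per kilobase for the large and 3040 for the small subunit in the transfer experiment, and 2974 and 3148 in the depletion experiment. At the low end stood Rps20 (236 and 239), Rps27l (187 and 165) and Rps27 (87.0 and 93.1), 147 and 155 times below Rpl13a in the latter case. The rank of Rps20 rests on an annotated length of 3706 bases, that of Rps15a on 5130; the median length over a gene's basic transcripts was adopted after 2 other definitions had been viewed.

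**Figure D1:**
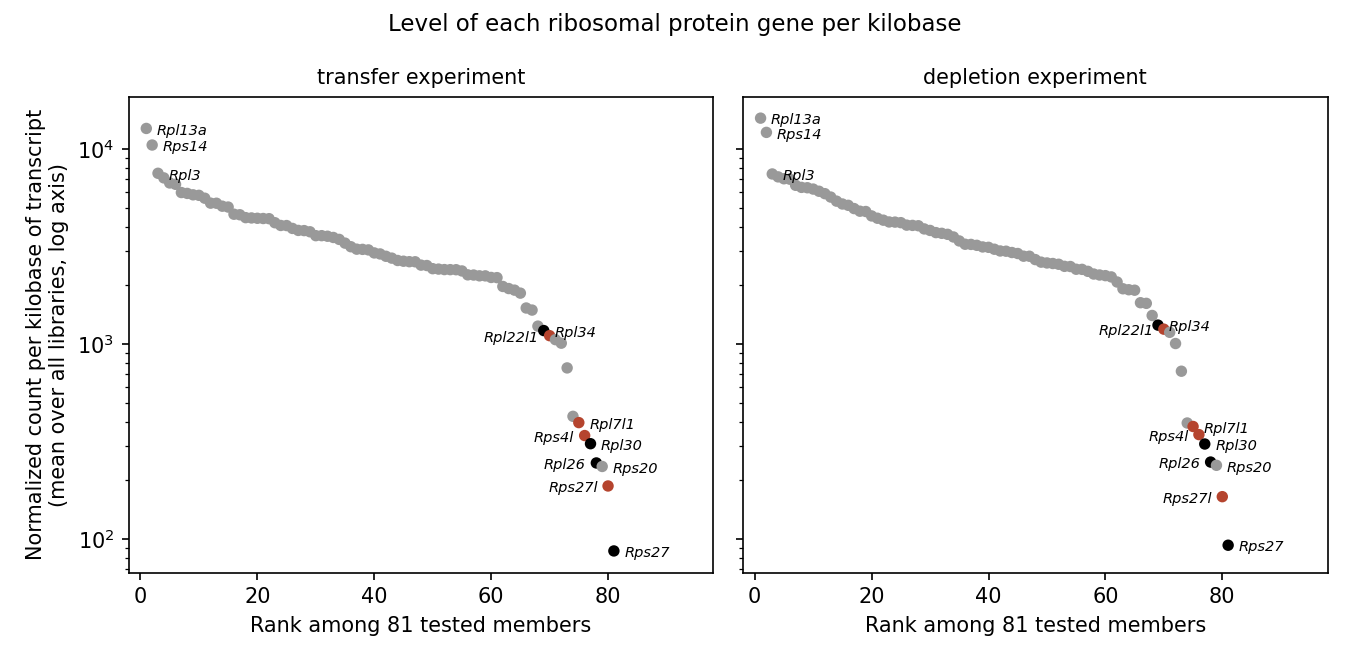
Mean normalized count per kilobase of transcript (log axis) against rank for the 81 tested members in each experiment; red points are the 4 tested paralogs and black points the 4 members with a copy that has more reads. Both experiments give Rpl13a, Rps14 and Rpl3 as the highest and Rps27 as the lowest.

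Part of the low end was made of members whose sequence also lies in another row of the tables. Of 10 tested members with at least 20% of their windows in such a row, 4 had fewer reads than the copy: Rps27, Rpl26, Rpl30 and Rpl34. Rps27rt had 39.7 times the normalized count of Rps27 in the transfer and 41.3 times in the depletion experiment. The copy of Rpl26, whose protein is also known to bind the p53 message, is the processed pseudogene Gm15772 at chr5:3236431-3236868, which had 17.2 and 17.8 times its count. The copy of Rpl30 is the processed pseudogene Gm12191 at chr11:49678710-49679057, with 10.8 and 12.1 times its count. Rpl34-ps1, at chr6:71124610-71124963, had 1.87 and 1.66 times the count of Rpl34. All 4 copies have 1 exon while the members have 4 or 5, and they were singled out after these values had been seen.

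The paralogs divided into barely detected and expressed genes. Rpl10l, the autosomal testis counterpart of Rpl10, had 0 reads in all 21 libraries, which allows at most 0.0373 to 0.0547 CPM over a group (3 reads, counting error only). Rpl39l, another gene of male germ cells, had 1 to 5 reads in a group, and the muscle gene Rpl3l had 6 to 16. Rpl22l1 was at 129% to 184% of its parent Rpl22 per kilobase across the 4 groups. This rests on annotated lengths of 538.5 and 2048 bases, and in reads Rpl22l1 was below Rpl22 in every group. Reads were 3515 and 8031 in aged T, 3035 and 8959 in young T, 3517 and 7245 in CD8a antibody, and 2899 and 7785 in IgG2b. Rpl7l1, which takes part in building the large subunit, was at 12.2% to 14% of Rpl7, and the single-exon Rps4l at 9.96% to 14.1% of the X-linked Rps4x. Against Rps27, whose read assignment is uncertain, Rps27l was at 109% to 289%.

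The first question was whether the recipients of aged and of young T cells differ in this family as a whole. All members together took 1.83%, 1.47%, 2.36%, 1.38% and 1.98% of the reads in aged T replicates 1 to 5. In the young T group the share was 1.29% to 2.06% with a median of 1.36%. Replicate 3 was the highest library of each group, and the groups overlapped: aged T replicates 2 and 4 lay below young T replicates 1 and 3. Means were 1.80% ± 0.398 (SD, n = 5) and 1.49% ± 0.297 (SD, n = 6). In the depletion experiment the share was 1.71%, 3.01%, 1.66%, 1.79% and 2.74% in CD8a antibody replicates 1 to 5, and 1.80%, 1.87%, 1.71%, 1.59% and 1.72% in IgG2b replicates 1 to 5. Replicates 2 and 5 of the antibody group stood above every other library of the series, and the other 3 lay among the controls. Means were 2.18% ± 0.641 and 1.74% ± 0.106 (SD, n = 5 each). No p is given for this sum. Large-subunit reads were 1.46 to 1.63 times small-subunit reads in every library.

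**Figure D2:**
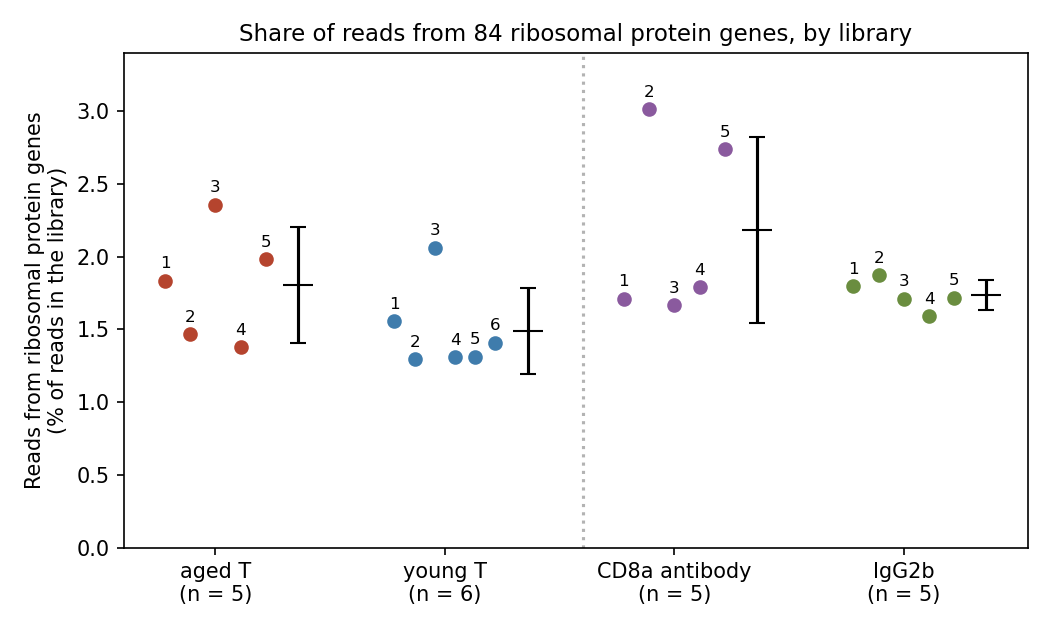
Percent of each library's reads that came from the 84 members (y axis, from 0) by group; points are libraries with their replicate number, and the black bar is the mean ± SD. Aged T 3, young T 3 and CD8a antibody 2 and 5 are the libraries above 2%.

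In recipients of aged T cells every tested member was higher on average than in recipients of young T cells, and none passed the test. The median log2 difference was 0.29 (1.22-fold) over the 81 members, 0.27 over the large and 0.30 over the small subunit. Over all 14162 genes tested it was -0.0045, and 49% of them were above 0. Single members ranged from 0.03 (Rpl22) to 0.59 (Rps27l). At an adjusted p under 0.05, limma-trend called 0 members and 0 of all genes (0%), as did edgeR, limma-voom, DESeq2 and the authors' deposited table. DESeq2 and the authors' table had the same number of genes tested and called in each experiment and are not separate results. At an unadjusted limma p under 0.05, 22 members were higher and 0 lower, where 4.29% of all genes were higher and 3.96% lower. The 2 groups of libraries did not separate for any member; they did so for 0.459% of all genes with aged T higher and 0.24% with it lower.

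The size of the difference varied by library. Aged T replicate 3 was the highest library for 67 of the 81 members, replicate 5 for 13 and replicate 1 for 1. The share of all genes highest in each library is not at hand. Aged T replicate 3 exceeded every young T library for 76 members (20.5% of all genes), replicate 5 for 40 (21.5%) and replicate 1 for 10 (12.1%). Replicates 2 and 4 did so for 0 members (14.8% and 12.7% of all genes). In the control group, young T replicates 2, 4, 5 and 6 lay below every aged T library for 57, 55, 50 and 28 members (15.8%, 19.7%, 15.4% and 15.3% of all genes). Young T replicate 1 did so for 9 (16% of all genes) and replicate 3 for 0 (19.3% of all genes). Without aged T replicate 3 the median log2 difference was 0.17, and 80 of 81 members stayed above 0. Without young T replicate 3 it was 0.38, and without both, an alternative added after seeing the shares, 0.26. In each of these last settings all 81 members stayed above 0.

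**Figure D3:**
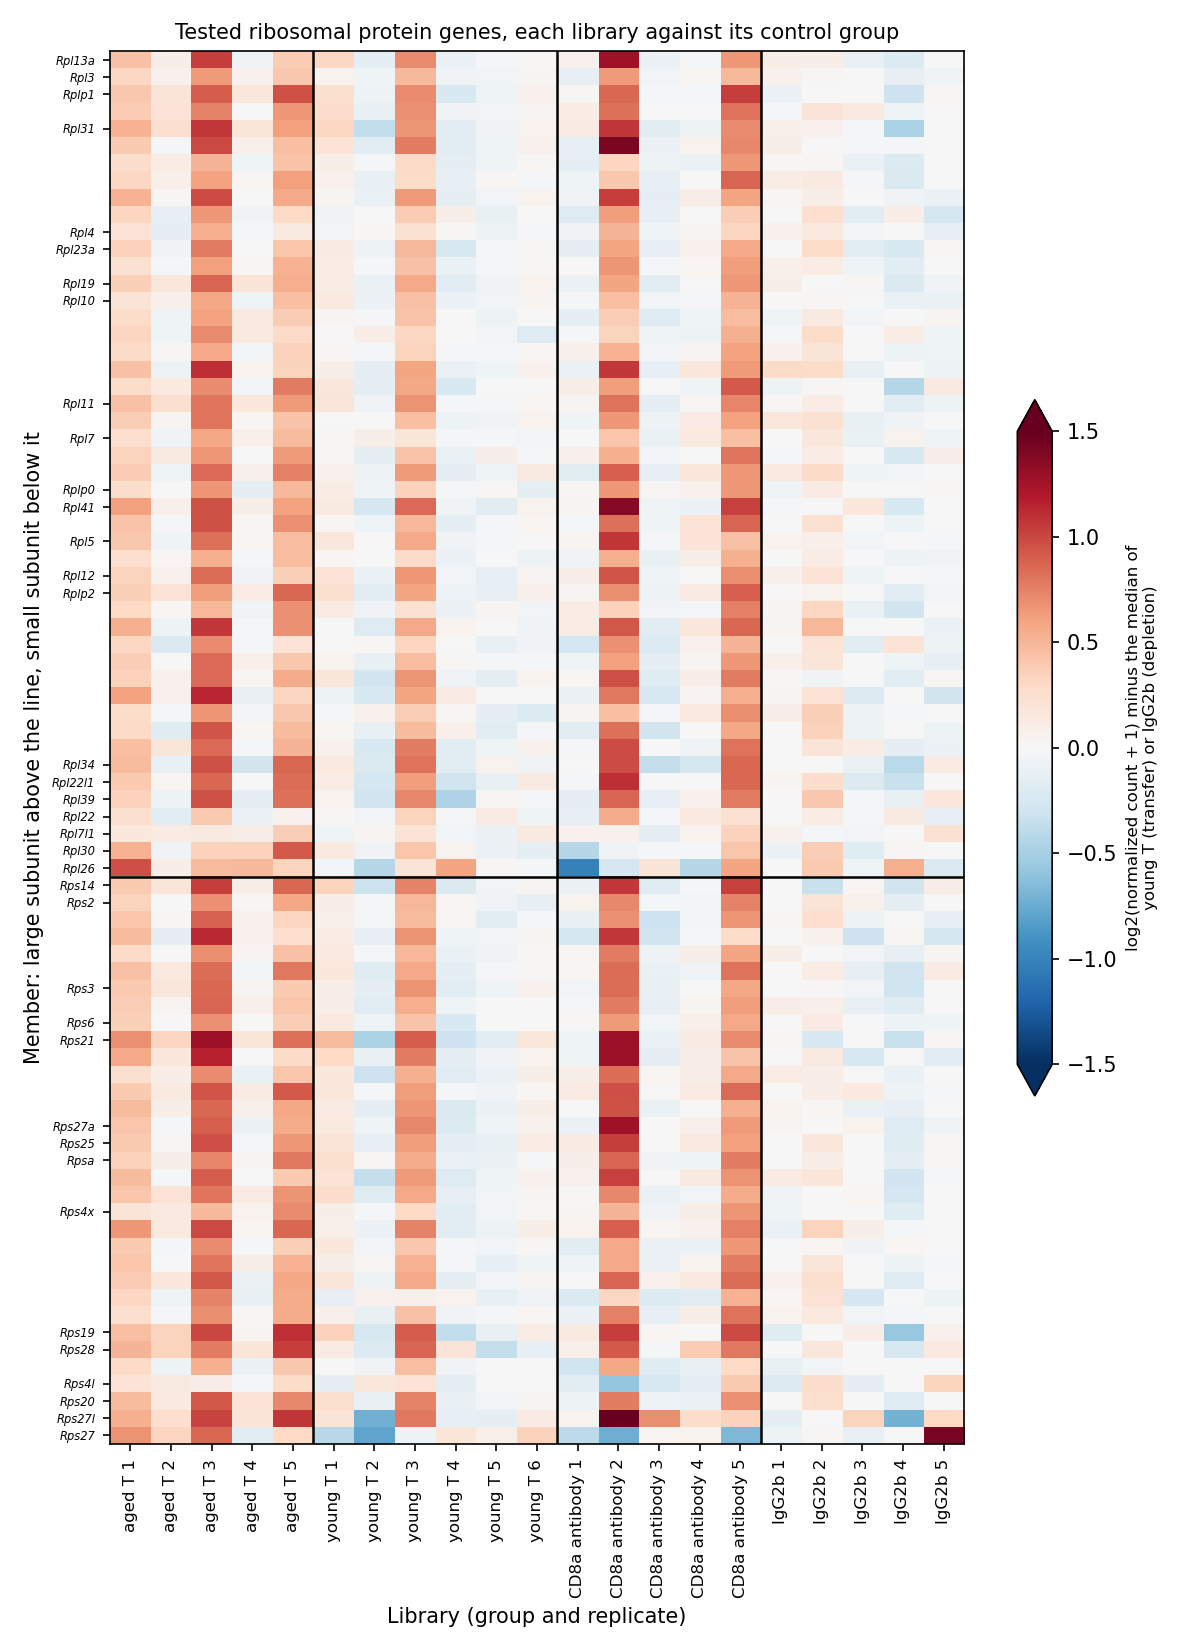
Each row is 1 of the 81 tested members (large subunit above the line, small below, each ordered by level per kilobase; members named in the text are labelled) and each column 1 of 21 libraries; colour is log2(normalized count + 1) minus the median of the control group, red above and blue below it. Aged T 1, 3 and 5, young T 3 and CD8a antibody 2 and 5 are red over nearly the whole column, and Rps27, Rpl26 and Rps4l break the pattern.

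Among the stalk proteins, which recruit translation factors to the large subunit, Rplp1 had 3057, 2646, 4339, 2599 and 4510.3 normalized counts in aged T replicates 1 to 5 and 1976 to 3799 with a median of 2319 in the young T group. Replicates 3 and 5 lay above all controls and the groups overlapped, with a log2 difference of 0.42 ± 0.18 (SE) and a limma adjusted p of 0.60. The log2 difference was 0.34 ± 0.15 for Rplp2, 0.21 ± 0.13 for Rplp0, the stalk's anchor, and 0.20 ± 0.16 for Rpl12 at its base. Rpl5 and Rpl11, which carry the smallest large-subunit rRNA and can also bind Mdm2, had 0.22 ± 0.15 and 0.33 ± 0.14. Rpl3 had 0.23 ± 0.13, and Rpl10, added late before the subunits can join, 0.18 ± 0.12. At the exit tunnel, where the new chain leaves, Rpl23a had 0.25 ± 0.15, Rpl39 0.38 ± 0.22 and Rpl31 0.45 ± 0.18; Rpl19 had 0.36 ± 0.14 and the very short Rpl41 0.38 ± 0.19. Limma adjusted p-values of these members were 0.60 to 0.71.

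Among the members of smallest unadjusted p were Rpl19 and Rpl31. Rpl19 had 3103, 2731, 4435, 2775 and 3536 normalized counts in aged T replicates 1 to 5 and 2168 to 3591 with a median of 2421 in the young T group. Rpl31 had 3772, 3119.8, 5493, 2994 and 4052 in aged T replicates 1 to 5 and 2039.6 to 4159 with a median of 2639 in the young T group. The groups overlapped for both, and both had a limma adjusted p of 0.60. Next to 0 were Rpl22 (0.03 ± 0.11), Rpl4 of the tunnel wall (0.12 ± 0.11) and Rps4l (0.13 ± 0.10).

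On the small subunit, Rps6, the substrate of the S6 kinases, had 5067, 3969.7, 6355, 3956 and 5115 normalized counts in aged T replicates 1 to 5 and 3365 to 5313 with a median of 3945 in the young T group. Only aged T replicate 3 lay above all controls, and the log2 difference was 0.24 ± 0.13 (limma adjusted p = 0.621). Rps2 and Rps3, at the channel where the message enters, had log2 differences of 0.26 ± 0.14 and 0.30 ± 0.16. Rpsa, known also as the laminin receptor, had 0.29 ± 0.15, Rps25 0.31 ± 0.18, Rps14 0.42 ± 0.20, Rps20 0.37 ± 0.17 and Rps27a, made as a fusion with ubiquitin, 0.25 ± 0.18. The highest values were those of Rps27l, Rps21 and Rps27. Rps27l had 113, 91.8, 156, 88.2 and 164 in aged T replicates 1 to 5 and 46.3 to 135 with a median of 77.5 in the young T group. Young T replicates 1 and 3 reached into the aged T range, and the log2 difference was 0.59 ± 0.24 (limma adjusted p = 0.60). Rps21 had 2039.6, 1591, 3114, 1445 and 2247 in aged T replicates 1 to 5 and 916 to 2382 with a median of 1279 in the young T group, a log2 difference of 0.56 ± 0.23 (limma adjusted p = 0.60). Only aged T replicate 3 lay above every young T library. Rps27 had 42.5, 33.0, 48.4, 23.3 and 32.6 and, in the young T group, 14.7 to 33.7 with a median of 26.3, a log2 difference of 0.51 ± 0.27 (limma adjusted p = 0.604).

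In aged mice, 77 of 81 members were higher on average with the CD8a antibody than with IgG2b, and none passed the test. The median log2 difference was 0.27 (1.2-fold), 0.23 over the large and 0.30 over the small subunit. Over all 13939 genes tested it was -0.0020, and 49.6% were above 0. Limma-trend called 0 members, where it called 1 of all genes (0.00717%), and so did edgeR and limma-voom; DESeq2 and the authors' deposited table called 0 members and 92 genes (0.656%). At an unadjusted p under 0.05, 10 members were higher and 0 lower, beside 4.31% and 4.15% of all genes. The groups separated for 0 members, and for 0.782% of all genes with the antibody group higher and 1.27% with it lower.

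Here the difference lay in 2 of the 5 antibody libraries. CD8a antibody replicate 2 was the highest library for 53 members and replicate 5 for 27, and IgG2b replicate 5 for the remaining one, Rps27. Replicate 2 exceeded every IgG2b library for 76 members (28.2% of all genes) and replicate 5 for 80 (33% of all genes), while replicates 1, 3 and 4 did so for 5, 1 and 10 (21.8%, 16.5% and 19.1%). Small-subunit members peaked in replicate 2 in 25 of 33 cases and large-subunit members in 28 of 48. For the counts of highest libraries given here, no share of all genes is at hand. The median was 0.15 without replicate 2, with 74 members above 0, and 0.17 without replicate 5, with 73. Without both it was -0.02, with 34 members above and 47 below 0, and the mean share of reads was 1.72% ± 0.0640 (SD, n = 3) beside 1.74% in the 5 controls. This last alternative was added after seeing the shares.

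Rps19, a small-subunit protein mutated in Diamond-Blackfan anaemia, had the smallest p. It stood at 1007, 1881, 938, 917 and 1817 normalized counts in CD8a antibody replicates 1 to 5, and at 809.7, 917, 981, 619 and 961 in IgG2b replicates 1 to 5. Replicates 2 and 5 stood far above the rest, and replicates 3 and 4 lay within the control range. The log2 difference was 0.55 ± 0.21 (limma adjusted p = 0.488). Rps28 (0.42 ± 0.17, adjusted p = 0.532) and Rps27l (0.62 ± 0.27, adjusted p = 0.554) came next by limma. Rps27l reached 197 in replicate 2 and was 70.7 to 111 in the other 4, against 41.1 to 86.0 with IgG2b. Without replicate 2 its log2 difference was 0.38. Rps21, the third highest member, had 0.50 ± 0.22.

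Of the stalk proteins, Rplp1 had 3072, 5479.8, 2962, 2958 and 6235 with the antibody and 2850.4, 3026, 3038, 2443 and 3063 with IgG2b, both as normalized counts in replicates 1 to 5. Replicates 2 and 5 were far above the controls and replicates 3 and 4 within their range, and the log2 difference was 0.45 ± 0.20 (limma adjusted p = 0.569). Log2 differences were 0.36 ± 0.17 for Rplp2, 0.26 ± 0.14 for Rplp0 and 0.30 ± 0.18 for Rpl12. Rpl5 had 0.33 ± 0.17, Rpl11 0.31 ± 0.17, Rpl3 0.21 ± 0.15, and Rpl10 0.21 ± 0.12. Rpl13a, the member of highest level, had 9752, 22527, 8768, 9162 and 14655 normalized counts in antibody replicates 1 to 5 and 10027, 9954, 8667, 8146 and 9354 with IgG2b, a log2 difference of 0.39 ± 0.22. Near the exit tunnel, Rpl23a had 0.21 ± 0.16, Rpl39 0.21 ± 0.20 and Rpl31 0.41 ± 0.21. Rpl19 had 0.23 ± 0.16, Rpl41 0.47 ± 0.25 and Rpl4 0.14 ± 0.12.

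On the small subunit, Rps6 had 4185, 6456, 4009, 4365 and 6158 normalized counts in CD8a antibody replicates 1 to 5 and 4168, 4509, 4137, 3936 and 3962 in IgG2b replicates 1 to 5. Replicates 2 and 5 again stood apart and the other 3 overlapped the controls, with a log2 difference of 0.25 ± 0.14 (limma adjusted p = 0.658). Rps2 had 0.27 ± 0.16, Rps3 0.32 ± 0.17, Rpsa 0.33 ± 0.18 and Rps14 0.46 ± 0.24. Rps20 had 0.24 ± 0.18, Rps25 0.38 ± 0.17 and Rps27a 0.41 ± 0.21. Among paralogs and their parents, log2 differences were 0.39 ± 0.19 in the transfer and 0.44 ± 0.22 in the depletion experiment for Rpl22l1, beside 0.03 ± 0.11 and 0.14 ± 0.12 for Rpl22. Rpl7l1 had 0.15 ± 0.08 and 0.04 ± 0.11, and Rpl7 0.23 ± 0.11 and 0.17 ± 0.12. Rps4x had 0.29 ± 0.12 and 0.30 ± 0.13.

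The experiments share no libraries. Of the 81 members, 77 were above 0 in both, and 4 were above 0 in the transfer and below 0 in the depletion experiment: Rps27, Rpl26, Rps4l and Rpl30. Of these, Rps27, Rpl26 and Rpl30 are among the 4 members whose copy had more reads. Among other genes with transcripts under 1000 bases, 84.7% were above 0 in the transfer and 75.6% in the depletion experiment. For members that short the shares were 100% and 93.7%. The share of other genes above 0 in both experiments is not given. The direction of Rpl30 in the depletion experiment rested on single libraries: it was 0.06 without CD8a antibody replicate 1 and 0.04 without IgG2b replicate 2.

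**Figure D4:**
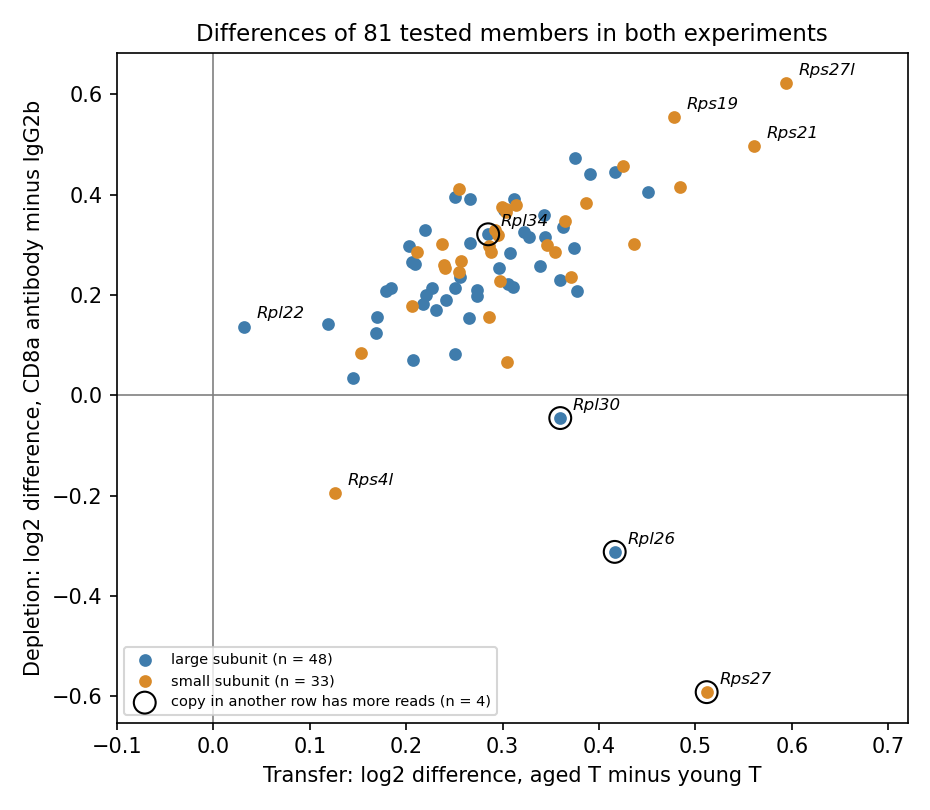
Log2 difference of each of the 81 tested members in the transfer experiment (x axis) against the depletion experiment (y axis); colours give the subunit, and rings mark the 4 members with a copy that has more reads. All but Rps27, Rpl26, Rpl30 and Rps4l lie at the upper right, above 0 on both axes.

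Rps27 had 22.8, 17.8, 30.8, 31.3 and 18.6 normalized counts in CD8a antibody replicates 1 to 5 and 28.5, 30.7, 27.8, 30.2 and 82.7 in IgG2b replicates 1 to 5. IgG2b replicate 5 stood far above all others, and antibody replicates 2 and 5 were the lowest 2. The log2 difference was -0.59 ± 0.32 (limma adjusted p = 0.649), and -0.30 without IgG2b replicate 5. Its copy Rps27rt ran the other way, with 1018, 2445, 1081, 1211 and 1990.4 in the antibody and 1232, 1189, 948, 1049 and 1091 in the IgG2b replicates 1 to 5. Replicates 2 and 5 were the highest there, as for most members, and the log2 difference of Rps27rt was 0.41 ± 0.21 (limma adjusted p = 0.636). With the reads of both genes added, the difference was 0.38. Rps27 held 1.53% of those reads in the antibody and 3.36% in the IgG2b group, so this sum follows Rps27rt whatever Rps27 does.

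Rpl26 had 71.9, 123, 167, 108 and 221 normalized counts in CD8a antibody replicates 1 to 5 and 146, 191, 139.8, 213 and 126 in IgG2b replicates 1 to 5. The antibody group held both the lowest and the highest library, and the log2 difference was -0.31 ± 0.26 (limma adjusted p = 0.775). Its copy Gm15772 had 2198, 4835, 2122, 2539 and 3331 in the antibody and 2636, 2616, 2130.2, 2205 and 2210.2 in the IgG2b replicates, a log2 difference of 0.28 ± 0.19 (limma adjusted p = 0.716). Added together, the pair gave 0.25. For Rpl30 the log2 difference was -0.05 ± 0.16, for Gm12191 0.43 ± 0.17 (limma adjusted p = 0.517) and for their sum 0.39. Rpl34 and Rpl34-ps1, whose counts are closer, gave 0.32 and 0.35. In the transfer experiment the sums gave 0.41 for the Rps27 pair, 0.27 for Rpl26, 0.34 for Rpl30 and 0.33 for Rpl34. In the Rps27, Rpl26 and Rpl30 pairs nearly all reads lay on the copy. Their sums therefore follow the copy and cannot show how the member itself differed. The share of a pair's reads placed on Rps27 was 1.53% in the antibody and 3.36% in the IgG2b group, and that on Rpl26 4.49% and 6.52%. The IgG2b share of Rps27 includes replicate 5, at 82.7 normalized counts against 27.8 to 30.7 in the others. In the transfer experiment the shares were 2.55% in aged T and 2.42% in young T for Rps27, and 5.80% and 5.28% for Rpl26. The remaining opposite member, Rps4l, had 268, 202, 256, 273 and 398 and 262, 362, 273, 302 and 380.0 in replicates 1 to 5 of the antibody and IgG2b groups, which overlapped, and a log2 difference of -0.20 ± 0.17 (limma adjusted p = 0.791).

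Transcript length moved with these results. The median member transcript had 774 bases, against 2800 for other genes tested in the transfer and 2799 in the depletion experiment. Other genes with transcripts under 1000 bases had a median log2 difference of 0.20 in the transfer experiment (n = 941) and 0.14 in the depletion experiment (n = 930). Those of 4000 bases or more had -0.10 (n = 3656) and -0.08 (n = 3597). After a smooth trend of the difference on length in the other genes was subtracted, the members' median was 0.09 in the transfer experiment, with 75 above and 6 below 0, and 0.15 in the depletion experiment, with 73 above and 8 below.

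By library, aged T replicates 3 and 5 had other short transcripts at a median of 0.36 and 0.37 above the young T median, and members at 0.80 and 0.52. Young T replicate 3 had short transcripts at 0.20 and members at 0.56. CD8a antibody replicate 5 had short transcripts at 0.54, transcripts over 5000 bases at -0.54 and members at 0.65. In CD8a antibody replicate 2 the members were at 0.77, other short transcripts at 0.21 and long ones at 0.03. The part of transcript length in the members' differences was not tested beyond this subtraction.

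**Figure D5:**
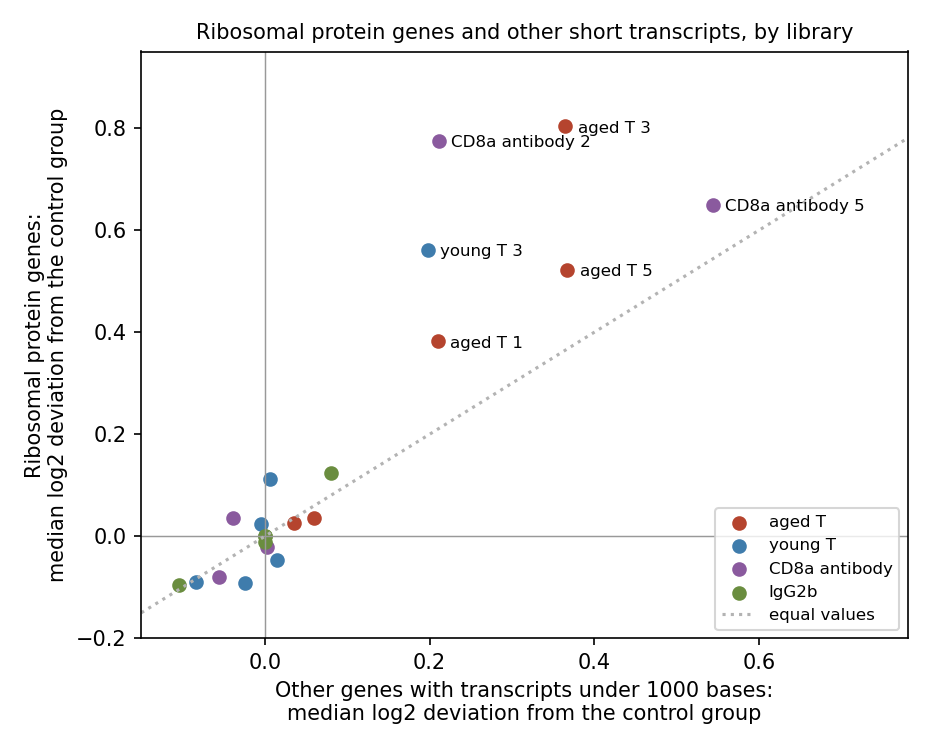
Each point is a library: the median log2 deviation from the control group's median over other genes with transcripts under 1000 bases (x axis) and over the 81 tested members (y axis); the dotted line marks equal values. The 6 labelled libraries lie above the line, and CD8a antibody 5 is farthest to the right.

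The members were set beside other genes of protein synthesis, in lists written with earlier results known. Ribosomal proteins outside the name rule (Fau and Rack1 among them) were above 0 in 5 of 5 cases in both experiments, with medians of 0.31 and 0.27. In the depletion experiment the smallest p was that of Fau, made as a fusion with a ubiquitin-like protein (0.41 ± 0.18, limma adjusted p = 0.547). Elongation factors were above 0 in 5 of 6 and 6 of 6 cases (medians 0.14 and 0.15). Their smallest p-values belonged to Eef1g (0.25 ± 0.09) and Eef2, which moves the ribosome along the message (0.22 ± 0.14). Other transcripts with a terminal tract were above 0 in 7 of 8 cases in both (0.15 and 0.13), and the smallest p-values were those of Npm1 (0.12 ± 0.08) and Ybx1 (0.33 ± 0.10, limma adjusted p = 0.323).

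Initiation factors were above 0 in 20 of 28 and 14 of 28 cases (medians 0.10 and -0.0003), with Eif3g (0.23 ± 0.08) and Eif3m (0.19 ± 0.11) of smallest p. Ribosome biogenesis factors were above 0 in 15 of 24 and 12 of 24 (0.07 and 0.0028), and Nop10, a small nucleolar protein, had the smallest p in both (0.40 ± 0.12 and 0.27 ± 0.19). RNA polymerase I genes, which make the rRNA precursor, were above 0 in 8 of 13 in both (0.01 in both), with Polr1d (0.20 ± 0.12) and Taf1c (0.31 ± 0.14). Regulators of ribosomal protein translation were above 0 in 4 of 14 and below it in 10 of 14 in both (-0.13 and -0.04), with Tsc2, a brake on mTOR (-0.20 ± 0.07), and Eif4ebp1 (0.49 ± 0.25). That list holds Mtor as well as brakes on it, so its median has no single meaning for translation. By limma, 0 genes of these lists were called in either experiment, and 9 of 98 (9.18%) in the transfer and 4 of 98 (4.08%) in the depletion experiment had an unadjusted p under 0.05 in either direction. Of all genes tested, 8.25% and 8.47% did.

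Other measures of the same libraries are set beside the members' share of reads, and their part in the result was not tested. These were poly(A) libraries, so reads of Rn45s, the gene of the rRNA precursor, do not measure how much rRNA or precursor the tissue held. They made up 0.747% to 1.34% of reads in aged T and 0.350% to 0.795% in young T libraries. The log2 difference between aged T and young T was 1.09 ± 0.22 (limma adjusted p = 0.60). Within each of these groups replicate 3, the highest in member share, was the lowest in Rn45s. In the depletion experiment Rn45s made up 0.556% to 1.30% with the antibody and 0.905% to 1.72% with IgG2b, and its mean was lower with the antibody (0.959% and 1.19%) while that of the members was higher.

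All markers of the cell types below were detected in every group. The 6 microglia markers summed to 3081 to 4463 normalized counts in aged T and 3031 to 4425 in young T libraries, and replicate 3 was the highest of each group. With the antibody they summed to 3823 to 4907, with IgG2b to 3287 to 3838; antibody replicate 5, high in member share, was the lowest of its group. The 5 astrocyte markers summed to 34231 in aged T replicate 3 and 33133 in young T replicate 3, the highest of their groups. They summed to 32913 in antibody replicate 2 and 16254 in replicate 5, the highest and the lowest of that group, and to 18212 to 21511 with IgG2b. The 6 oligodendrocyte markers summed to 46213 to 83139 in aged T and 40007 to 70471 in young T libraries. In antibody replicates 1 to 4 they summed to 57898 to 88257, above the 43664 to 55577 of IgG2b, and in replicate 5 to 45038.

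The 7 vessel markers summed to 1995 to 3478 normalized counts in aged T, 2286 to 4803 in young T, 2002 to 2952 in CD8a antibody and 1713 to 2024 in IgG2b libraries. The 6 fibroblast markers summed to 364 to 1803, 659.5 to 4682, 371 to 1046 and 950.0 to 1284 in the same order. The 7 choroid plexus markers ranged widely within every group, from 2216 to 53496 in aged T, 2836 to 34081 in young T, 811 to 31702 in CD8a antibody and 1997 to 26957 in IgG2b libraries. Of the 2 antibody libraries with the highest member share, replicate 2 had a choroid plexus sum of 26931 and replicate 5 of 811, the lowest of the series.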

How the data were processed

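Hippocampal RNA from 21 samples was sequenced as strand-specific, paired-end poly(A) libraries, per the labels' protocols. The submitters' processing notes name STAR, RSEM, DESeq2 and the mm10 build, without roles; how reads were assigned to genes, and with which annotation, is not given in the sources used here. Values were deposited as normalized counts, a signal of reads divided by 1 size factor per library, per the file headers. All values divided back to whole reads (relative tolerance 1e-06), and 0 columns were left out. The authors' deposited log2 fold changes, p-values and Wald score were used only to count their calls, with the sign turned.

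Since the values are normalized, limma-trend was the main test in place of a count test (R 4.3.3 with limma 3.58.1). It was fitted to log2 of the normalized count plus 1, over all genes with a mean of at least 10, with Benjamini-Hochberg adjustment and a threshold of 0.05. Alternatives were edgeR 4.0.16, limma-voom and DESeq2 1.42.0 on recovered reads, other filters, pseudocounts and scalings, each library left out, and a lowess length trend (span 0.3, statsmodels 0.14.6). DESeq2 is given with all genes kept, after other filtering settings had been viewed. The tests were checked on simulated data. Lengths and positions come from GENCODE vM21.

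Members and lists were chosen with earlier results of these data known. Named members were those of fixed roles, paralogs with their parents, the 3 highest, lowest and smallest-p members per comparison, the level extremes, members on the opposite side, and the smallest-p gene of each related list. Genes with a copy, and the start sequences shown, were chosen after values were seen. A few genes that the rule names are not reported here.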

Additional observations from a re-analysis of the deposited data

Results flagged for a closer look

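Of 152 groups of libraries examined, 18 held a library apart from the others by Dixon's criterion, where chance gives about 1 in 20. Most of the groups are members measured in the same libraries. They are not independent, so the count cannot be judged against that rate. In the young T group replicate 3 stood high in 14 of the 18. Its share of reads from the members was 2.06%, against 1.29% to 1.56% in the other 5. On the large subunit it had normalized counts of 3695 for Rpl11, 3999 for Rpl12, 3591 for Rpl19, 12430 for Rpl3, 896 for Rpl39, 7459 for Rpl4, 2004 for Rpl41 and 6465 for Rpl5. On the small subunit it had 8635 for Rps2, 1157 for Rps20, 3017 for Rps27a, 554 for Rps28 and 7388 for Rps3. For Rpl3 the other young T libraries lay between 8457 and 9232, and for Rps3 between 4123 and 4980.

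IgG2b replicate 4 stood low for Rpl31 (2464.5 normalized counts, 3356 to 3620 in the others) and Rps3 (4448, against 5353 to 5535). IgG2b replicate 5 stood high for Rps27 (82.7, against 27.8 to 30.7). Aged T replicate 5 stood high for Rpl7l1 (931, against 769.6 to 808).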

How the results depend on the processing

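No paired analysis was possible because the replicate numbers were given in accession order and pair nothing. No member was called at an adjusted p under 0.05 under any alternative run. The comparisons counted next left out at most 1 library, so the setting without CD8a antibody replicates 2 and 5 together is not among them. That setting put 47 of the 81 tested members below 0. The 37 members named by rule kept their direction in 700 of 702 transfer and 662 of 665 depletion comparisons with an alternative. The exceptions among these 37 were Rpl22 in the transfer experiment (-0.0059 without aged T replicate 1, -0.043 without replicate 3; range -0.043 to 0.096 with 1 library left out), and in the depletion experiment Rpl30 (0.056 without CD8a antibody replicate 1, 0.040 without IgG2b replicate 2; range -0.15 to 0.056) and Rpl7l1 (-0.030 without CD8a antibody replicate 5; range -0.030 to 0.089). Over all 81 tested members, those below 0 in the depletion experiment numbered 4, and 7 without CD8a antibody replicate 2, 8 without replicate 5 and 47 without both. With 1 library left out, the members' median was 0.17 to 0.38 in the transfer and 0.15 to 0.37 in the depletion experiment. The difference in share of reads was 0.175 to 0.427 and 0.239 to 0.576 percentage points. Members whose groups did not overlap then numbered 0 to 2 in both, reaching 2 without young T replicate 3 and without CD8a antibody replicate 3. No share of all genes is at hand for these settings, so these counts cannot be read as a result about the members. Without CD8a antibody replicates 2 and 5 together, added after seeing the data, the median was -0.0192 (large subunit -0.0284) and the difference in share -0.0151 points. Of all genes in the depletion experiment, 1 was called by limma, 92 by DESeq2, 0 with no filter on the mean and 0 to 25 with 1 library left out, 25 without CD8a antibody replicate 5 and 2 without replicate 2. The cause was not tested. Rpl3l, Rpl10l and Rpl39l, with at most 16 reads in a group, were below the filter and were not tested.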
